A study of Mus musculus with 8 samples.

Results

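The loops described here join the starts of 7 mouse genes of the EGF receptor system to other sites on the same chromosome. The genes are the receptors Egfr, Erbb2 and Erbb3 and the ligands Areg, Ereg, Tgfa and Hbegf. A loop was taken when 1 of its anchors lay within 2 kb of an annotated transcription start of such a gene. This gave 267 distinct loops of the 249200 in the series, and each of the 7 genes was among the 10802 of 21951 protein-coding genes with at least 1 loop. The receptors sit in the cell membrane, pair up when a ligand binds and signal through the RAS and PI3K pathways. ERBB2 has no known ligand and acts as a partner of the other receptors, whereas ERBB3 has little kinase activity and binds neuregulins. The ligands are made as membrane-bound precursors that proteases cut free.

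The samples were 2 cell lines of the KPC mouse, a genetic model of pancreatic cancer. The tumor line came from a primary tumor and the liver mets line from a matched liver metastasis, so each context is represented by 1 line, and the labels give both as wild type in genotype, untreated and grown in DMEM with serum. Hi-ChIP, which reads contacts between distant DNA fragments where a chosen protein is bound, was done for the transcription factors FOXA1 and HNF4G in each line, with 2 replicates in each of the 4 groups (8 samples). The comparison asks whether contacts tied to each factor differ between the primary and the metastatic context. No expression was measured in these files, so the labelled cell type could not be checked against marker genes.

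Each group had 1 list of loops that joined its replicates, so no spread between replicates and no test between groups can be given. All intervals below are 95% intervals that cover counting error only, and they treat loops as independent although loops of 1 gene share an anchor. The FOXA1 liver mets list held 125623 loops, the FOXA1 tumor list 104136, the HNF4G liver mets list 78098 and the HNF4G tumor list 76323. Numbers of reads were not used here, and the depth behind each loop is unknown. The lists drew on 30542 anchors with a median width of 2335 bp, of which 45.2% had a start of any gene within 2 kb, and no anchor overlapped another, so a loop was either identical in 2 lists or not shared. The value deposited for each loop was read as the −log10 of an adjusted p, so that a value of 2 stands for 0.01 and the top value was 20. Runs of tied values, which differed between the lists, made up 25.3% to 32.4% of each list. In the order of the lists above, the lower tied values were 0.0889, 0.123, 0.146 and 0.171 and the higher ones 1.87, 1.91, 1.99 and 1.99. With depth unknown and no test, a higher value in 1 list than in another does not show a difference in contact.

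Erbb2 held far more loops than any other gene of the group, and Egfr held the fewest. Counted over the 4 lists together, Erbb2 had 121 distinct loops, Tgfa 37, Hbegf 35, Erbb3 24, Areg 22, Ereg 18 and Egfr 11. The ratio of Erbb2 to Tgfa was 3.27 (exact interval 2.25 to 4.86). Of the later neighbors in this order, none differed beyond counting error, with ratios of 1.06, 1.46, 1.09, 1.22 and 1.64 and intervals that all included 1. The median protein-coding gene with a loop had 7 loops with FOXA1 in liver mets, 6 with FOXA1 in tumor and 5 in each HNF4G list. Erbb2 lay above at least 98.9% of these genes in every list, and Egfr lay above 32.7% to 66.8%.

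**Figure D1:**
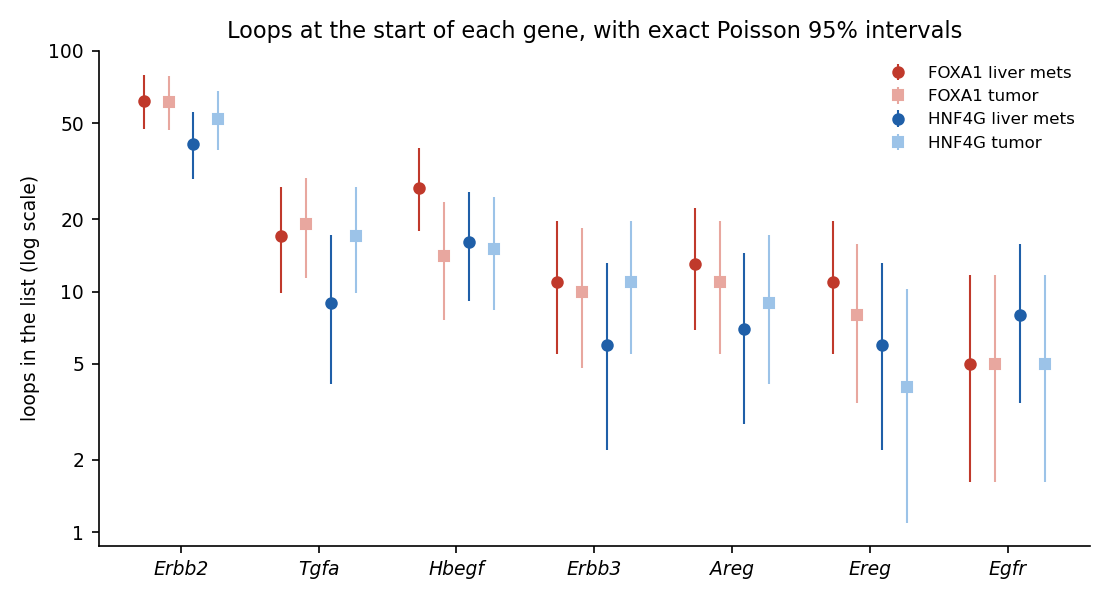
Number of loops with an anchor at the start of each gene (vertical axis, log scale) in the 4 lists, with exact Poisson 95% intervals, and genes ordered by distinct loops. Erbb2 sits between 41 and 62 loops in every list, and every other gene has 27 or fewer.

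The number of loops at a start also depends on how wide the anchor is. The widest anchor of the group, at the upstream start of Erbb2, spanned 9.237 kb. It had 50 loops with FOXA1 in liver mets and 48 in tumor, and with HNF4G 28 in liver mets and 42 in tumor. The 203 start anchors within 20% of that width had medians of 26, 20, 16 and 17 in the same order, so Erbb2 was above its width class in each list. Hbegf, on an anchor of 5.568 kb, was likewise above the medians of its class of 1151 anchors, which were 15, 12, 9 and 9. Egfr, on an anchor of 2.368 kb, had 5, 5, 8 and 5 loops beside medians of 6, 5, 4 and 4 in its class of 5754 anchors, and was above them in the HNF4G lists alone.

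Egfr, the receptor for all 4 ligands, was reached through the anchor on chromosome 11 from 16750846 to 16753213, which held 3 of its 5 annotated starts. It had 5 loops with FOXA1 in liver mets and 5 in tumor, and with HNF4G 8 in liver mets and 5 in tumor. The Poisson intervals of these counts overlapped, from 1.62 to 11.7 for a count of 5 and from 3.45 to 15.8 for a count of 8. Of the 11 distinct loops, 4 ended inside the gene itself, 4 at sites with no gene and 3 at the start of another gene. The longest spanned 225 kb, the shortest reach of any gene of the group. The loop to an Egfr intron 49.6 kb downstream was in all 4 lists with values of 0.0889, 0.123, 0.443 and 0.545 (in the order used above). The other loop in all 4 lists joined the start to the small RNA gene Gm25698, 15.8 kb upstream. Only 1 of the 11 loops reached a value of 2 in any list. It ran 199 kb to the starts of Fbxo48, an F-box gene, and the noncoding gene Eldr, with a value of 3.21 in HNF4G liver mets and 1.61 in FOXA1 tumor. In HNF4G liver mets, 7.43% of the 3973 loops of like span had a value as high.

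The 200 bases that end 50 bases before the RefSeq starts of Egfr and Erbb2 (RefSeq, GRCm38.p6, plus strand) are shown because these genes had the fewest and the most loops. They held 60.0% and 63.5% G and C. RefSeq promoters of 300 bases were taken for 4 of the 7 genes (Egfr, Erbb2, Areg and Tgfa). No entry was found for Erbb3 and Ereg, and Hbegf was left out of the search. None of the 4 promoters held the forkhead letters TGTTTAC or TGTTTGC or the HNF4 letters CAAAGTCCA or CAAAGGTCA on either strand. Of all 32851 promoters in that table, 8.48% held the forkhead letters and 0.95% the HNF4 letters.
Egfr, chr11:16751953-16752152: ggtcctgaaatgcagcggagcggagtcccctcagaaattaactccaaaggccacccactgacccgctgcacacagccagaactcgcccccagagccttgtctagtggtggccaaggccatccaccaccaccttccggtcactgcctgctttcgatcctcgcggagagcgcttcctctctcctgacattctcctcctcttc
Erbb2, chr11:98412234-98412433: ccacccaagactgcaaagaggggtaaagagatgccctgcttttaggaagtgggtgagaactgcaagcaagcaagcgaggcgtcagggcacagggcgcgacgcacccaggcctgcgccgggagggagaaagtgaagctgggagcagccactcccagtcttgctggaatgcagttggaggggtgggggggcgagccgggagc

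Erbb2, the receptor without a ligand of its own, lies on the same chromosome and had loops at 2 start anchors. The upstream anchor, from 98411223 to 98420459, carried 91 distinct loops. The downstream anchor, from 98426970 to 98429451 inside the gene, carried 31, and a loop of 12.4 kb between both was in all 4 lists with values of 2.14, 2.78, 2.48 and 0.413. Together they gave 62 loops with FOXA1 in liver mets and 61 in tumor, and with HNF4G 41 in liver mets and 52 in tumor. HNF4G liver mets had the fewest, but per 100000 listed loops the counts were 49.4, 58.6, 52.5 and 68.1, with FOXA1 liver mets lowest. Of the 121 loops, 77 (63.6%) ended at the start of another gene, against 57.2% over all pairs of a protein-coding gene and its loop, and 67 ran upstream and 54 downstream.

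The neighbors of Erbb2 within 100 kb were reached in nearly every list. Of the 33 loops under 100 kb, 14 were in all 4 lists and 4 in 1 list, and each list held 23 to 26 of them. As shares these were 42.4% and 12.1%, against 16.2% and 34.1% of all loops with a start under 100 kb. Starts of Mien1, Grb7, Pgap3, Stard3 and Ppp1r1b, neighbors that are often amplified together with ERBB2 in human tumors, were the partners of 19 of the 33. The other 14 ended at sites with no gene (7), at Neurod2, in introns of Stard3 and Pgap3 or at the second Erbb2 start. The loop from the upstream anchor to the Grb7 start 30.8 kb away, a gene for an adaptor that binds ERBB2, had values of 3.08, 3.87, 3.48 and 1.95. That loop was lowest in HNF4G tumor and above 2 in the other lists. The loop of 18.4 kb from the downstream anchor to the same start had 0.869, 0.668, 0.798 and 1.44 and was highest in HNF4G tumor instead. Mien1 starts were joined by 4 loops, of which 3 were in all 4 lists, and Pgap3 starts by 3, of which 2 were in all 4 lists.

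Farther away most loops were in 1 list, as for genes at large. Of the 62 loops of Erbb2 from 100 to under 1000 kb, 44 were in 1 list (71.0%) and 2 in all 4 (3.23%), against 74.5% and 1.64% of all loops with a start of that span. The 2 in all 4 lists ran 290 kb to the starts of Med24, a Mediator subunit, and Csf3, a cytokine gene, and 354 kb to the start of Nr1d1, a circadian repressor. The Med24 and Csf3 loop had values of 4.94, 3.31, 1.91 and 10.9, with HNF4G tumor highest and HNF4G liver mets lowest. The Nr1d1 loop, the longest of the 32 loops of the group in all 4 lists, was even, with values of 3.15, 3.40, 3.63 and 3.57. The highest value of Erbb2 was 11.3, in FOXA1 liver mets, for a loop of 532 kb to the start of Rara, a retinoic acid receptor. It was 6.26 for the same loop in HNF4G tumor, and the loop was in neither of the other lists. In FOXA1 liver mets 0.154% of the 5207 loops of like span had a value as high as 11.3. Those loops were matched by span and not by anchor width. The partner anchor of the loop at 11.3 was 14837 bp wide, against a median of 2335 bp over all anchors. All 3 loops from Erbb2 to Rara starts were in those same lists, FOXA1 liver mets and HNF4G tumor, and in no other. Only 1 of the 3 reached a value of 2, and the share of all loops found in just this pair of lists was not taken. The highest value in FOXA1 tumor, 3.9, belonged to a loop of 978 kb to Arhgap23 that no other list held. The loop of 172 kb to Ormdl3, a regulator of sphingolipid synthesis, had a value of 5.83 with FOXA1 in liver mets and, with HNF4G, 3.09 in liver mets and 4.78 in tumor, and was not in the FOXA1 tumor list.

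The partner anchor at Nr1d1, which also covers part of Thra, is shown as 2 windows with the matching letters in capitals. For this and the other genes on which windows are shown (all GRCm38, plus strand), the window came from the partner anchor that was in the most lists and held the most matches. The anchor, from 98761245 to 98778128, held 6 forkhead matches and 1 HNF4 match. The first window lies in an intron of Thra and the other in an exon of Thra, and the window of the Egfr intron described above stands below them.
Erbb2 partner, forkhead letters, chr11:98762298-98762354: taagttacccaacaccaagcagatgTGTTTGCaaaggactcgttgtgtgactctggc
Erbb2 partner, HNF4 letters on the minus strand, chr11:98763008-98763066: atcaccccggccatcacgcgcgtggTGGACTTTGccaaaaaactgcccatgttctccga
Egfr partner in the Egfr intron, forkhead letters on the minus strand, chr11:16799699-16799755: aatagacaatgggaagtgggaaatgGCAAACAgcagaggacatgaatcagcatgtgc

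Erbb3, the receptor for neuregulins, had its anchor on chromosome 10 from 128588501 to 128591458 and lies on the minus strand. It had 11 loops with FOXA1 in liver mets and 10 in tumor, and with HNF4G 6 in liver mets and 11 in tumor. HNF4G liver mets was lowest, with a Poisson interval of 2.20 to 13.1 that included the other counts. Of its 24 distinct loops, 19 (79.2%) ended at the start of another gene, the largest share of the 7 genes, and 19 ran downstream. Loops under 100 kb numbered 9, of which 3 were in all 4 lists. These ended 23.2 kb downstream at Pa2g4, which encodes an ERBB3-binding protein, 10.2 kb downstream inside Erbb3, and 8.5 kb upstream at the noncoding gene Gm47540. The Pa2g4 loop had values of 0.586, 0.647, 0.146 and 0.171. Both HNF4G values matched the lower tied value of their list, to the digits given, and all 4 were below 2. Of the 15 loops of 100 kb or more, 14 were in 1 list (93.3%), against 78.0% of all loops with a start of that span. The highest value was 4.08, in HNF4G liver mets alone, for a loop of 967 kb to the start of Lrp1, a receptor of the LDL receptor family. The highest value in FOXA1 tumor was 1.80, to Stat2 and Apof. In the other lists it was the tied value of the list, 1.87 for 2 loops with FOXA1 in liver mets and 1.99 for 3 loops with HNF4G in tumor, 1 of them to Gli1, a Hedgehog effector.
Erbb3 partner beside Pa2g4, in no gene, forkhead letters in capitals, chr10:128566939-128566995: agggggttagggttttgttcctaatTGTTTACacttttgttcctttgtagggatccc

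Areg and Ereg, which encode amphiregulin and epiregulin, are neighbors on chromosome 5, both on the plus strand. The Areg anchor ran from 91137261 to 91140641 and the Ereg anchor from 91070979 to 91073705. The Ereg anchor did not overlap the annotated start at 91074622 and also lay within 2 kb of the start of Gm19610. Areg had 13 loops with FOXA1 in liver mets and 11 in tumor, and with HNF4G 7 in liver mets and 9 in tumor. Ereg had 11, 8, 6 and 4 in the same order. Each FOXA1 list thus held more loops of either gene than each HNF4G list, as the FOXA1 lists also did in all. Per 100000 listed loops Areg had 10.3, 10.6, 8.96 and 11.8, where this order was lost, and Ereg 8.76, 7.68, 7.68 and 5.24. The loop between both starts, 66.6 kb long, was in 3 lists with values of 0.0874 in FOXA1 liver mets, 0.385 in FOXA1 tumor and 0.146 in HNF4G liver mets. It was not in HNF4G tumor, and neither was any other loop of Ereg under 100 kb, of which the remaining lists held 5, 3 and 5. The highest value among these loops was 0.88, in HNF4G liver mets. Of all loops with a start under 100 kb, 16.2% were in all 4 lists, and the share missing from HNF4G tumor was not taken.

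Both genes drew on common partners. They shared 8 partner anchors, which were 36.4% of the 22 of Areg and 44.4% of the 18 of Ereg. Of these, 4 lay between 91038152 and 91124218, around Ereg and between the genes, and touched no gene. For Areg 3 of these 4 were joined in all 4 lists, and for Ereg none was. Over all of its loops Ereg had 0 of 18 in all 4 lists (Wilson interval 0.0% to 17.6%). The longest Areg loop in all 4 lists, 98.6 kb upstream, had values of 0.706, 0.628, 1.23 and 1.01. No loop of either gene reached a value of 2 in any list. The highest value of both was 1.99, the tied value of HNF4G tumor, which 3 loops of Areg and 2 of Ereg had. The shortest of these ran 103 kb from Areg to a site with no gene and 667 kb from Ereg to the pseudogene Trmt112-ps1. In HNF4G liver mets the highest values were 1.98 for Areg with the start of Rassf6 and 1.91 for Ereg with the start of Cxcl5, a neutrophil chemokine. The starts of Cxcl5, Cxcl15 and Cxcl2 were reached by 2 loops of Areg and 2 of Ereg, each in 1 liver mets list and in no tumor list. Of all loops with a start that span 100 kb or more, 78.0% were likewise in 1 list, and in HNF4G tumor both genes were joined to a site 30.2 kb from Cxcl5. Areg was also joined to the starts of the ligand genes Epgn, 111 kb upstream with a value of 1.01, and Btc, 263 kb downstream with a value of 1.75, both in FOXA1 tumor alone.
Areg partner, in no gene, forkhead letters in capitals, chr5:91041521-91041577: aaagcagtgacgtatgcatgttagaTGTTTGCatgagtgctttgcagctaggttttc
Ereg partner, in no gene, forkhead letters in capitals, chr5:91115192-91115248: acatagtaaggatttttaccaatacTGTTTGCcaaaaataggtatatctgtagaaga
Ereg partner, in no gene, HNF4 letters in capitals, chr5:91115454-91115512: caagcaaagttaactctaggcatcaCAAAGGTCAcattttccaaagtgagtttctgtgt

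Tgfa, which encodes transforming growth factor alpha, had its anchor on chromosome 6 from 86193827 to 86198237 with 3 of its 4 annotated starts. It had 17 loops with FOXA1 in liver mets and 19 in tumor, and with HNF4G 9 in liver mets and 17 in tumor. HNF4G liver mets was the lowest list, also per 100000 listed loops, where the counts were 13.5, 18.2, 11.5 and 22.3. Upstream, 8 loops under 100 kb were spread over 6.37 to 70.5 kb, of which 6 were in 3 lists and none in all 4. The 1 loop in all 4 lists ran 38.0 kb into a Tgfa intron, with values of 1.02, 0.123, 0.146 and 0.171. Apart from FOXA1 liver mets, these matched the lower tied value of each list, to the digits given. Starts of Add2, an adducin gene 110 to 166 kb upstream, were joined by 3 loops. HNF4G liver mets was the 1 list that held none of them. Of these, the loop of 110 kb had a value of 2.02 in HNF4G tumor, the only Tgfa loop that reached 2. A run of 5 partner anchors from 389 to 445 kb downstream was reached in the tumor line alone. It had 4 loops in FOXA1 tumor and 2 in HNF4G tumor, with values of 1.85 to 1.95, all below 2. Of the 5 distinct loops 4 were in 1 list. Of all loops with a start from 100 to under 1000 kb, 74.5% were likewise in 1 list. The limits of this run were set after the loops were seen. The highest values in the liver mets line were the tied values of the lists, 1.87 for 3 loops with FOXA1 and 1.99 for 2 with HNF4G, and a loop of 903 kb to an intron of Sfxn5 was among them in both.
Tgfa partner in the Tgfa intron, forkhead letters in capitals, chr6:86233804-86233860: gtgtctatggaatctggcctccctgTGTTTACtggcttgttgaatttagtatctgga

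**Figure D2:**
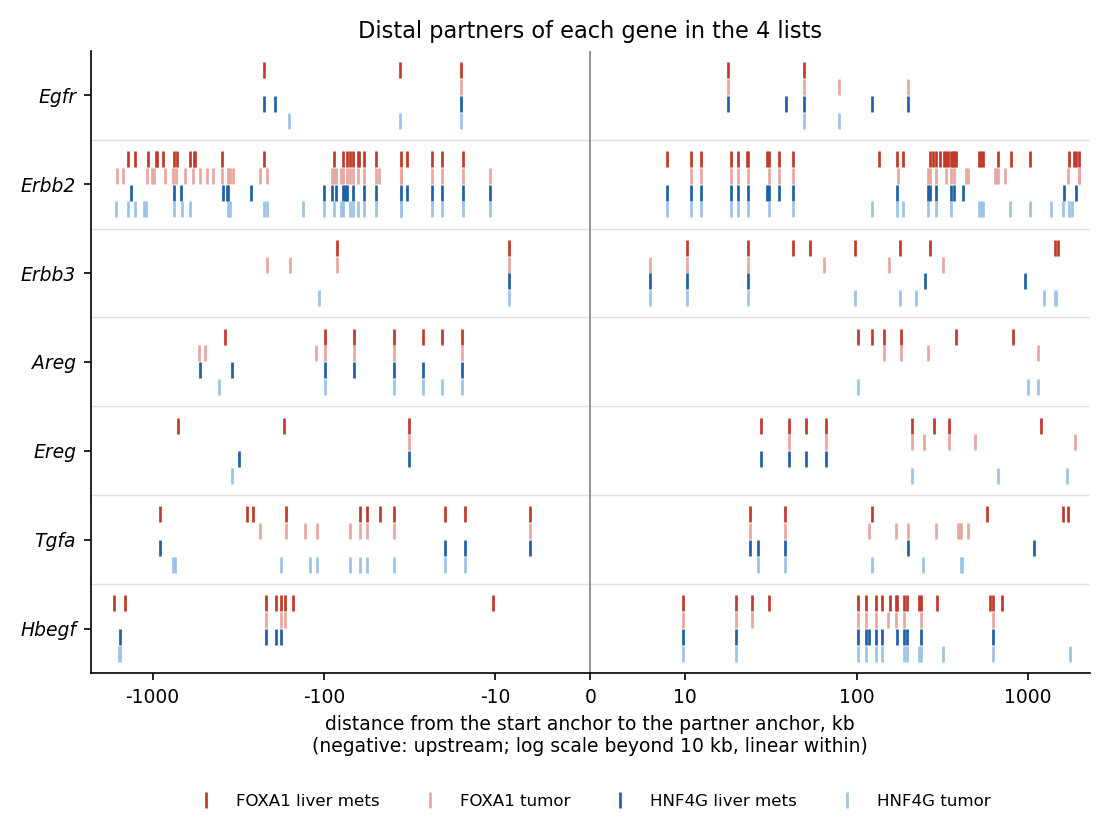
Distance in kb from the start anchor to each partner anchor (horizontal axis, negative upstream of the gene, log scale beyond 10 kb), 1 tick per loop, with a row per list in each gene. Ticks stacked in 4 rows are loops in all 4 lists, and most of these lie within 100 kb, apart from Hbegf partners from 102 to 236 kb and Erbb2 partners at 290 and 354 kb.

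The letters shown above were common among anchors. Forkhead letters were found in 62.5% of the 30542 anchors and HNF4 letters in 8.87%, and wider anchors held them more often. Among the partner anchors, forkhead letters were in 7 of 11 for Egfr, 58 of 97 for Erbb2, 13 of 24 for Erbb3, 18 of 22 for Areg, 12 of 18 for Ereg, 23 of 37 for Tgfa and 23 of 35 for Hbegf. Areg was highest at 81.8%, against 68.4% for anchors of like width, and Erbb3 lowest at 54.2%, against 66.9%. HNF4 letters were in 1 to 12 partner anchors of each gene. A match is a description of the letters only and was not tied to binding here.

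Hbegf, which encodes heparin-binding EGF-like growth factor, lies on the minus strand of chromosome 18. Its anchor, from 36515171 to 36520738, covered all 3 annotated starts and also lay near the start of AC147220.1. It had 27 loops with FOXA1 in liver mets and 14 in tumor, and with HNF4G 16 in liver mets and 15 in tumor. FOXA1 liver mets had the most, but per 100000 listed loops it was near both HNF4G lists, at 21.5, 13.4, 20.5 and 19.7, and FOXA1 tumor was lowest. Of the loops in FOXA1 tumor, 13 of 14 were also in FOXA1 liver mets (92.9%, Wilson interval 68.5% to 98.7%), against 40.6% of all loops with a start. These 13 were 48.1% of the FOXA1 liver mets loops of Hbegf, against 34.2% of all loops with a start. Of the 35 distinct loops, 7 (20%) were in all 4 lists, the largest share of the 7 genes, and 5 were under 100 kb. Hbegf also had the highest values, with 16 of its 35 loops at 2 or more in some list, against 17 of 121 for Erbb2 and 3 for the other 5 genes together.

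The highest values of Hbegf lay in 1 stretch, which held 8 of its 16 loops at 2 or more. From 102 to 173 kb downstream, 9 partner anchors covered starts of Cystm1, a small membrane protein gene, and parts of the bodies of Cystm1 and Pfdn1, a prefoldin subunit. They gave 7 loops with FOXA1 in liver mets and 5 in tumor, and with HNF4G 6 in liver mets and 4 in tumor, of which 7, 5, 5 and 4 had a value of 2 or more. The loop of 113 kb to exons of Cystm1 and Pfdn1 had values of 20, 6.26, 5.92 and 5.33. The loop of 130 kb into Cystm1 had values of 20, 3.68, 6.45 and 4.14. Both were at the top value in FOXA1 liver mets and lower in the other lists. The loop of 102 kb to an intron of Pfdn1 had values of 2.59, 2.55, 20 and 3.23 and was at the top value in HNF4G liver mets instead. In FOXA1 liver mets 0.292% of the 6162 loops as long as the first of these (within 10%) had a value as high, and in HNF4G liver mets 0.178% of 3943 for the last. Anchor width was not matched in these shares, and the Hbegf anchor of 5.568 kb was wider than the median of 2335 bp. Outside this stretch Hbegf had 26 loops, and the highest value among them was 3.93. The longest Hbegf loop in all 4 lists ran 236 kb to the start of Pura, a gene for a nucleic acid binding protein, with values of 1.57, 1.70, 1.85 and 1.82. The start of Nrg2, a neuregulin gene, was joined by a loop of 322 kb in HNF4G tumor alone, with a value of 1.91.

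**Figure D3:**
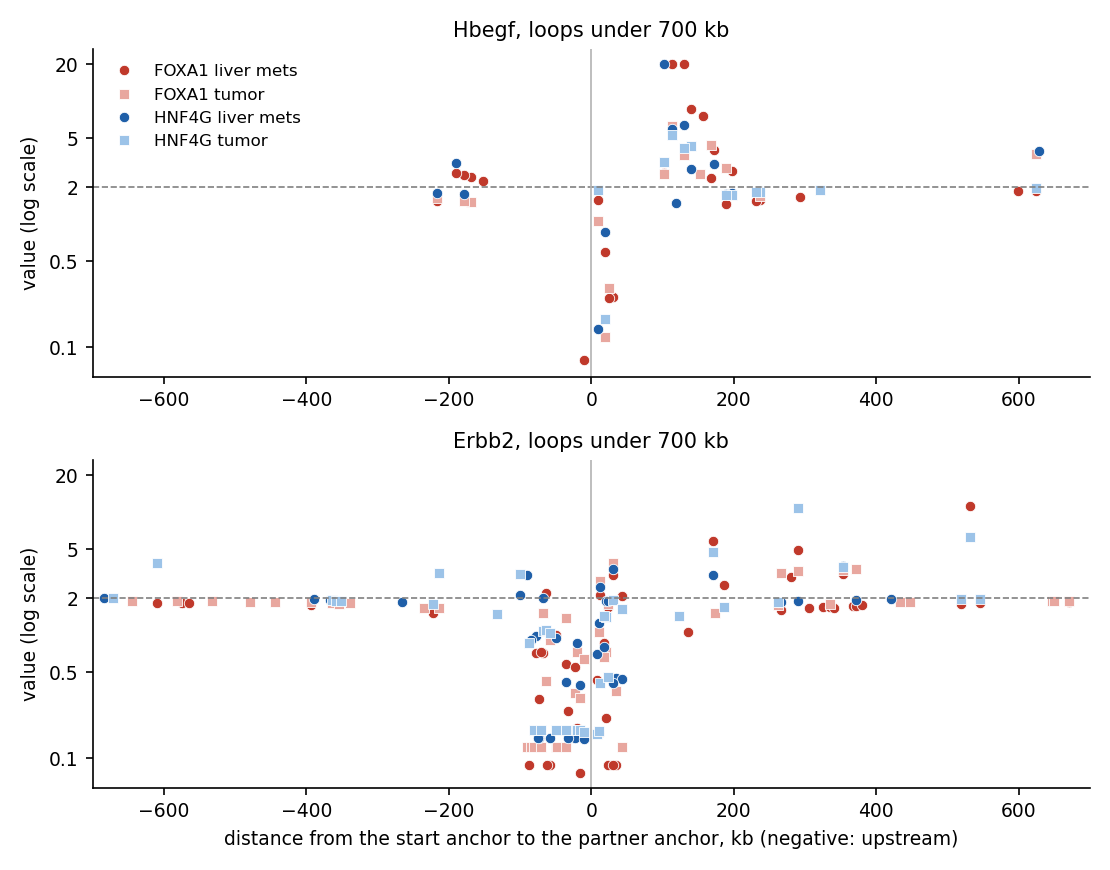
Value of each loop under 700 kb (vertical axis, log scale) against the distance of its partner from the start anchor in kb, for Hbegf and Erbb2 in the 4 lists, with a dashed line at a value of 2. The 3 points at 20 lie 102 to 130 kb downstream of Hbegf, and the highest points of Erbb2 are 11.3 in FOXA1 liver mets and 10.9 in HNF4G tumor.

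Values of 2 or more were found with FOXA1 for 22 of the 145 loops of the group in liver mets (15.2%) and 14 of 127 in tumor. With HNF4G they were found for 15 of 92 in liver mets (16.3%) and 12 of 113 in tumor (10.6%). Over all loops with a start of any gene the shares were 9.57%, 8.28%, 7.80% and 8.02%. With FOXA1 every loop of the group at 2 or more belonged to Erbb2 (10 in liver mets and 7 in tumor) or Hbegf (12 and 7). With HNF4G, Erbb2 had 6 in liver mets and 7 in tumor, and Hbegf 7 and 4. The group shares thus rest mainly on these genes. All 15, 9, 5 and 18 loops of 1000 kb or more had the higher tied value of their list, so the value did not rank them. The median span with FOXA1 was 169 kb in liver mets (interval 103 to 198 kb) and 166 kb in tumor (102 to 213 kb). With HNF4G it was 81.2 kb in liver mets (49.6 to 130 kb) and 132 kb in tumor (99.6 to 213 kb). HNF4G liver mets thus had the shortest median for the group, although its interval overlapped that of every other list. It was also the list with the shortest median over all loops with a start, 123 kb against 142 to 174 kb in the others. By gene, its median was the shortest for Erbb2, Erbb3, Areg, Ereg and Tgfa. For Egfr its median was the longest, at 86.1 kb against 35.7 to 49.6 kb. For Hbegf its median was 176 kb, above FOXA1 liver mets (173 kb) and FOXA1 tumor (161 kb). Where the value was at least 2, the median of the group in HNF4G liver mets was 140 kb (102 to 190 kb, 15 loops). In the other lists it was then 156 to 179 kb. Within HNF4G liver mets, 54.3% of the loops of the group were under 100 kb, against 44.7% of all loops with a start.

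Loops of this group were more often shared by all lists than loops at starts in general. Of the 267 distinct loops, 154 were in 1 list, 48 in 2, 33 in 3 and 32 in all 4. The share in all 4 lists was 12.0% (Wilson interval 8.62% to 16.4%), against 5.54% of the 181129 loops with a start of any gene. With anchors widened by 5 kb before matching, the shares were 36.7% (31.1% to 42.6%) and 24.9%. These shares count loops of any value, and only 1 loop of Erbb2 and 3 of Hbegf reached 2 in all 4 lists. Among the 36 loops with a value of 2 or more, that was 11.1% (4.41% to 25.3%). At that minimum the share over all loops with a start was not taken. Loops under 100 kb made up 27.7% of the group and 28.1% of all loops with a start. At the shares seen for loops of the same span ranges, 15.4 loops in all 4 lists would have been counted where 32 were. The part of anchor width in this difference was not tested. The share in 1 list was 57.7% (51.7% to 63.5%), against 65.7%, and 29.6% against 37.2% with widened anchors. By gene the share in all 4 lists ran from 0.0% in Ereg and 2.70% in Tgfa to 18.2% in Egfr and 20% in Hbegf. Without Erbb2, which held 121 of the loops, the share in all 4 was 11% (6.86% to 17.1%).

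**Figure D4:**
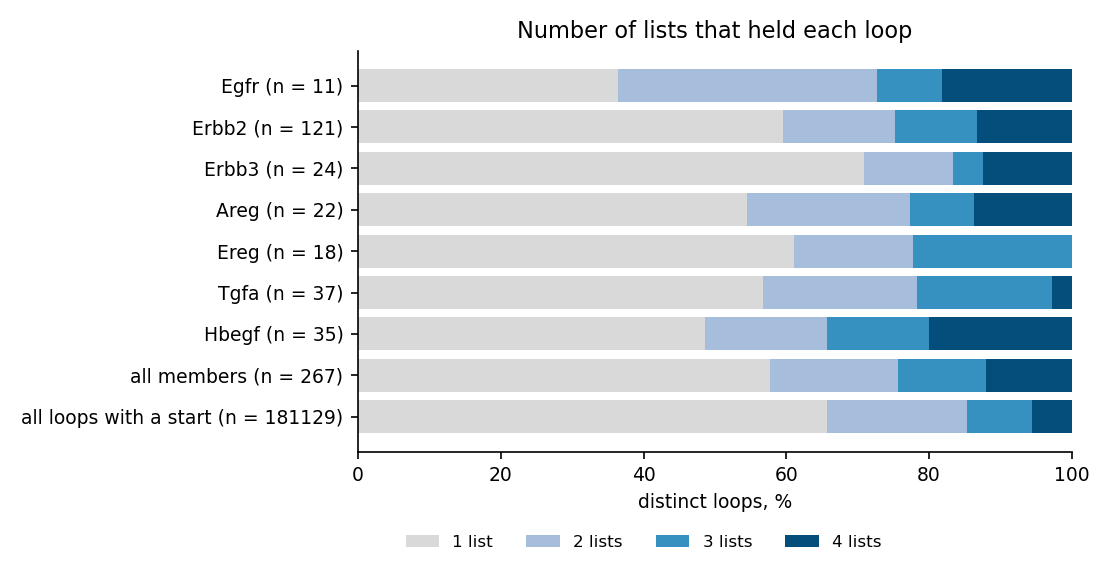
Share of distinct loops (horizontal axis, %) held by 1, 2, 3 or all 4 lists, for each gene, for the 7 genes together and for all loops with a start of any gene. The darkest part, loops in all 4 lists, is 12.0% for the 7 genes and 5.54% for all loops with a start, and is missing for Ereg.

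Loops shared by both lists of 1 factor or of 1 line, and held by no other list, were few. Of the 267 loops, 12 were in both FOXA1 lists and in no HNF4G list, and 2 were in both HNF4G lists alone. Both liver mets lists alone shared 9 loops and both tumor lists alone shared 7. As shares these were 4.49%, 0.749%, 3.37% and 2.62%, against 5.49%, 1.94%, 3.45% and 2.61% of all loops with a start. Of the 92 loops in HNF4G liver mets, 65.2% were in FOXA1 liver mets (41.4% of its 145) and 50% in HNF4G tumor (40.7% of its 113). Of the 127 loops in FOXA1 tumor, 51.2% were in FOXA1 liver mets (44.8% of its loops) and 41.7% in HNF4G tumor (46.9% of its loops). Each pair of lists shared more of these loops than of all loops with a start, where the shares were 27.5% to 44.1%.

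The lists were then set against each other gene by gene, after dividing each count by the length of its list. A gene was compared where the 2 lists together held at least 20 of its loops, and a ratio of 1.5 or more in either direction was called. Between FOXA1 liver mets and FOXA1 tumor, the 7 genes together held 145 loops against 127, a ratio of shares of 0.946 (0.741 to 1.21). Gene by gene, 5 were compared. Hbegf was 1.60 times higher in liver mets (exact interval 0.809 to 3.30), and the others ran from 0.742 in Tgfa to 0.980 in Areg. The call of 1 gene higher and 0 lower stood beside 6.86% of 3836 protein-coding genes called higher and 9.46% called lower, with a median ratio of 0.967. Hbegf lay above 95.4% of these genes. No interval left out 1, so no gene was set apart between the FOXA1 lists beyond counting error.

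Between HNF4G liver mets and HNF4G tumor, the 7 genes together held 92 loops against 113, a ratio of 0.796 (0.598 to 1.06), and 3 were compared. Tgfa was lower in liver mets, with a ratio of 0.517 (0.203 to 1.23). Erbb2 was at 0.771 (0.499 to 1.18) and Hbegf at 1.04 (0.483 to 2.26). Over 2637 genes 6.75% were called higher and 14.8% lower, and 4.06% lay below Tgfa. For every gene the change between lines in FOXA1 divided by that in HNF4G had an interval that included 1. Hbegf stood at 1.53 (0.590 to 3.99) and Tgfa at 1.43 (0.507 to 4.05).

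Between the factors in the tumor line, the ratio of FOXA1 to HNF4G was 0.824 (0.634 to 1.07) for the 7 genes together and ran from 0.666 to 0.896 in the 5 genes compared. Erbb3 was the lowest at 0.666 (0.254 to 1.73) and only just past the fold, with Hbegf next at 0.684 (0.306 to 1.52). Over 3119 genes 7.53% were called higher in FOXA1 and 18.5% lower, with a median of 0.887. Between the factors in the liver mets line the ratio was 0.980 (0.749 to 1.29) for the 7 genes together. Of the 4 genes compared none was called, at 0.940 in Erbb2, 1.15 in Areg, 1.17 in Tgfa and 1.05 in Hbegf. Over 3406 genes 7.66% were called higher and 14.6% lower. Over the 4 comparisons, the genes called were Hbegf, Tgfa and Erbb3, and no interval of any of the 7 genes left out 1.

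**Figure D5:**
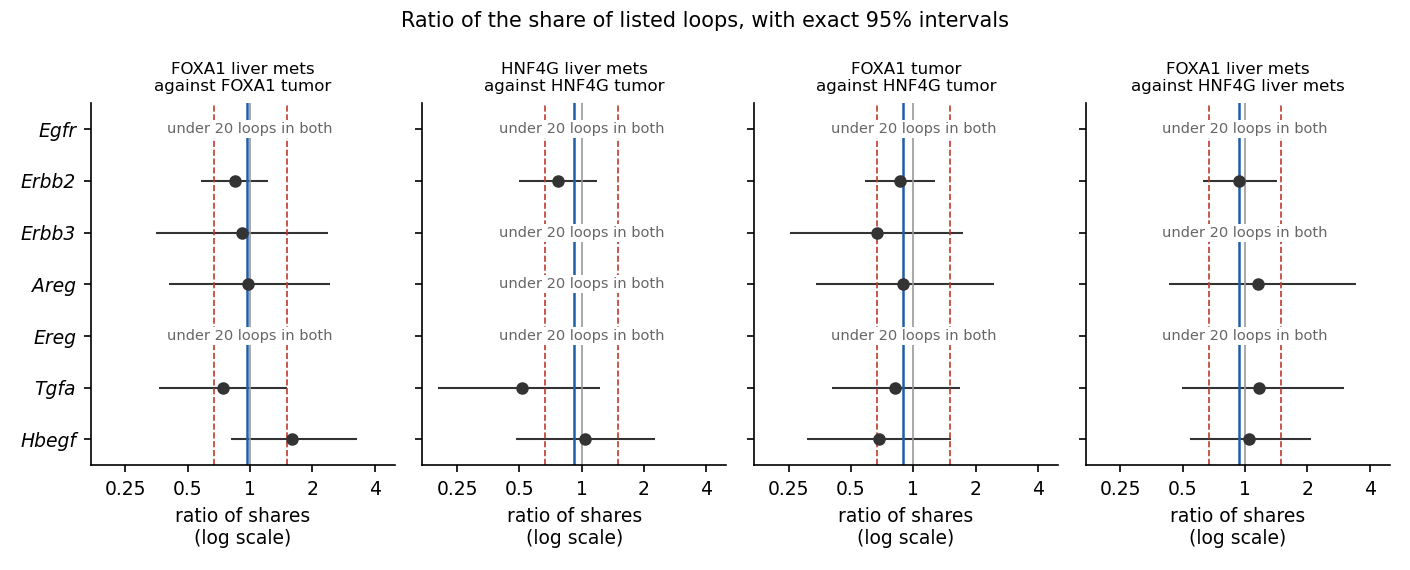
Ratio of the share of listed loops between 2 lists (horizontal axis, log scale) for each gene with at least 20 loops in both together, with exact 95% intervals, in the 4 comparisons. The gray line is 1, the dashed lines are 1.5-fold in either direction and the blue line is the median of all compared protein-coding genes. Every interval includes 1, with Hbegf at 1.60 in FOXA1 and Tgfa at 0.517 in HNF4G farthest from it.

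Other genes had many partner anchors in common with these loci. Each gene named here had no start anchor in common with the gene it is set beside. Rara shared 69 of the 97 partner anchors of Erbb2 (71.1%, and 51.9% of its own 133). Add2 shared 28 of the 37 of Tgfa (75.7%), Myl6b 18 of the 24 of Erbb3 (75.0%) and Cystm1 23 of the 35 of Hbegf (65.7%). Btc, the betacellulin gene, shared 12 of the 18 of Ereg (66.7%), Mthfd2l 12 of the 22 of Areg (54.5%) and Pno1 5 of the 11 of Egfr (45.5%). All of them lie on the chromosome of the gene they are set beside.

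The wider pathway was taken as a list of 23 genes, of which 19 had a loop. Erbb4, Nrg1 and Nrg3, a receptor and neuregulins, and Adam17, the protease that releases several of the ligands, had none. Among the other receptors and ligands Btc had the most, with 18 loops with FOXA1 in liver mets and 11 in tumor, and with HNF4G 3 in liver mets and 8 in tumor. Its ratio of FOXA1 to HNF4G in liver mets was 3.73 (1.09 to 19.8), the 1 interval that left out 1 among the 28 comparisons of this list with at least 20 loops. Below that minimum Epgn, the epigen gene, had 3 loops against 8 in the same comparison, at 0.233 (0.0398 to 0.971). Among the genes of ligand release Rhbdf2, a partner of ADAM17, had the most, with 21, 11, 10 and 10 loops. Among adaptors it was Shc1 with 35, 20, 22 and 17, and among inhibitors of the receptors Lrig1 with 46, 48, 38 and 29.

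Between the lines in FOXA1, 8 genes of the pathway list were compared, of which 3 were called higher in liver mets and none lower, with a median ratio of 1.41. They were Rhbdf2 at 1.58 (0.729 to 3.63), Errfi1, a feedback inhibitor of EGFR, at 1.59 (0.759 to 3.50) and Sos1, a RAS exchange factor, at 1.66 (0.626 to 4.85). In HNF4G 6 were compared and none was called. Between the factors, 2 of 8 were called higher in FOXA1 in liver mets, Btc and the adaptor Grb2 at 1.51 (0.595 to 4.31), and none of 6 was called in the tumor line. The background shares are those given above for the same comparisons, and apart from Btc no interval of the genes compared left out 1.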

How the data were processed

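Hi-ChIP reads were processed by the authors with HiC-Pro 3.1.0 at default settings on mm10 (DpnII fragments, duplicates removed), and loops were called with hichipper. How replicates were joined, the anchor source and the minimum of read pairs per loop were not given in the sources used here. Each list deposited by the authors gave anchor coordinates, a −log10 value per loop without a name and a display score. The reading of the value as an adjusted p rests on its tied runs and its end at 20, and the deposited score was 10 times its whole part plus 1 in every loop and was not used.

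Groups came from the sample titles, and the list of each group was matched by its name. Starts were those of GENCODE M21 on GRCm38 within 2 kb of an anchor. Span was the distance between anchor midpoints, and like span meant within 10%, with no matching of anchor width. Counts were compared as shares of a list with exact (Clopper-Pearson) intervals conditional on their sum, shares with Wilson intervals and medians with binomial order-statistic intervals (Python 3.11.15, SciPy 1.17.1, pandas 2.3.3). The call rule was tested on simulated counts from lists of equal length, with planted changes well above 1.5-fold. Its recovery of changes near 1.5-fold was not tested. The genes and lists were chosen with earlier results of these data known. Genes named by rule were the 7 genes, the partners of their highest loop per list, of their longest loop in all 4 lists and of loops between them, the genes with most partner anchors in common, and, of the pathway list, the gene with most loops per class and those past the fold. The other partners named (among them Ormdl3, the genes within 100 kb of Erbb2, the chemokine genes, Epgn, Nrg2, the genes without a loop and the Cystm1 stretch) were chosen after their values were seen. Alternatives were the window around a start, protein-coding transcripts only, a minimum value of 2, undivided counts, a 2-fold limit, anchors widened by 5 kb and leaving out Erbb2.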

Additional observations from a re-analysis of the deposited data

How the results depend on the processing

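No paired analysis was possible because each group had 1 list that joined its replicates, and for the same reason no replicate could be left out. Of 84 values recomputed under the alternatives, 68 stayed near the main value and 16 moved. The count of reversed values was 0, yet some ratios passed from below 1 to above it. For HNF4G liver mets against tumor the ratio went from 0.796 to 1.24 with a minimum value of 2. For FOXA1 against HNF4G in tumor it went from 0.824 to 1.12 with undivided counts. For FOXA1 liver mets against tumor it went from 0.946 to as high as 1.14. All of these had intervals that included 1. Starts overlapped by the anchor or within 5 kb moved none of the 14 results each, although without a margin no loop counted for Ereg. Leaving out Erbb2, an alternative added after seeing the data, moved none of 14. With a minimum value of 2 the median span in HNF4G liver mets was 140 kb, the ratio of loops of the 7 genes was 1.24 for HNF4G liver mets against tumor and 0.705 for FOXA1 against HNF4G in liver mets, and 0 genes were called between the FOXA1 lists, between the HNF4G lists and between the factors in tumor, since none had 20 loops left. With undivided counts the ratio of FOXA1 to HNF4G was 1.58 in liver mets (1.21 to 2.07), with 4 genes called, and 1.12 in tumor, with 0 called, because the FOXA1 lists were longer. At 2-fold 0 genes were called in the 3 comparisons that had 1 call. With protein-coding transcripts only, 2 genes were called between the HNF4G lists. With anchors widened by 5 kb, 36.7% of the loops were in all 4 lists and 29.6% in 1 list, against 24.9% and 37.2% of all loops with a start. Depth per library and per loop was unknown, and a loop missing from a list was not shown to be absent.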

Other observations

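Erbb2 was the gene with most of the loops of 1000 kb or more. It held 26 of them, of which 24 were in 1 list (92.3%, against 94.2% of all loops with a start of that span) and 2 in a pair of lists, and none had a value of 2 or more. The partners included starts of the keratin genes Krt20, Krt33a and Krt19, epithelial filament genes 1023 to 1732 kb downstream, which were joined by 4 loops. Each of these was in 1 list, 1 in FOXA1 liver mets, 1 in FOXA1 tumor and 2 in HNF4G tumor, and the start of Krt19 was reached from the upstream anchor in FOXA1 liver mets and from the downstream anchor in FOXA1 tumor. Nearer to Erbb2, starts of Thra, a thyroid hormone receptor, and Nr1d1 were joined by 4 loops with FOXA1 in liver mets and 2 in tumor, and with HNF4G 1 in liver mets and 1 in tumor, at spans of 326 to 354 kb. Of these 4 distinct loops 2 were in 1 list, and only the Nr1d1 loop in all 4 lists reached a value of 2. The counts were not divided by list length, and the FOXA1 liver mets list was the longest. These partners were chosen after their values were seen.

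Among the inhibitors of the receptors, Socs5 had 28 loops with FOXA1 in liver mets and 23 in tumor, and with HNF4G 16 in liver mets and 18 in tumor, of which 5 were in all 4 lists. Cbl, a ubiquitin ligase that removes activated receptors, had 7, 5, 11 and 9 in the same order, and was the 1 of these genes with more loops in both HNF4G lists than in either FOXA1 list.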
